A study of Mus musculus with 6 samples.

Results

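The genes of the cytosolic ribosomal proteins were examined in basal epithelial cells of the mouse prostate, sorted from the proximal and from the distal ducts. Members were the protein-coding genes with an Rpl or Rps symbol followed by a digit, together with Rpsa, Rplp0, Rplp1 and Rplp2, without the Rps6k kinase genes and without genes named as pseudogenes. They numbered 86 of the 25273 genes with a value, 52 with large subunit and 34 with small subunit symbols. Of the members, 77 are standard ribosomal protein genes of the large or the small subunit. The other members are the paralogues Rpl3l, Rpl10l, Rpl22l1, Rpl36al, Rpl39l and Rps27l, the retrocopy Rps27rt, and Rpl7l1 and Rps19bp1, which share the symbol pattern but encode proteins that are not themselves ribosomal subunits. All 86 were kept because the rule is one of symbols, and 83 reached a mean of 1 FPKM (fragments counted per kilobase of a transcript and scaled by library size) and were tested.

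Each duct region was represented by 3 libraries from C57BL/6 mice aged 8 to 12 weeks, with no genotype or treatment distinguishing the regions. The antibodies and gates that defined the basal cells are not stated, and neither is whether the sorted cells were cultured. Whether each library is a separate animal is not given by the labels, so that p-values here reflect how far the libraries vary, and that variation may be technical. Total RNA was primed with both random and oligo(dT) primers before sequencing. The estimated depth was 21000000 to 27000000 fragments per library, and 9910 to 10301 genes reached 1 FPKM. The summed FPKM of 9 basal markers was 7870 to 9646 in distal and 8908 to 9243 in proximal libraries. Single basal markers moved in both directions, with 3 called higher in proximal cells, 0 lower and 4 estimates negative (limma, adjusted p under 0.05). Luminal and secretory markers, 11 in number, were also present, at a sum of 2124 to 2911 FPKM in distal and 2465 to 2717 FPKM in proximal libraries. The purity of the sort was not tested.

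The cytosolic ribosome is assembled from a large and a small subunit, each built of ribosomal RNA and a set of small, mostly basic proteins. The small subunit reads the messenger RNA, and the large subunit forms peptide bonds and releases the chain through its exit tunnel. Ribosomal protein genes are transcribed at high levels in nearly all cells, and their messenger RNAs usually begin with a 5′ terminal oligopyrimidine (TOP) tract, a C followed by further pyrimidines, through which their translation responds to mTOR signalling. Mammalian genomes also carry many intronless processed copies of these genes, most of them without function.

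The sequences shown are of 2 kinds, the start sites of members with a TOP tract and the coding sequences that are nearly identical between a gene and its expressed copies. A TOP tract was scored as a C at the annotated first base followed by at least 4 pyrimidines, on the strand of the gene. RefSeq promoter windows (GRCm38.p6, reaching 250 bases before and 50 bases after each start) were available for 63 of the 83 tested members, and 14 of these (22.2%) carried the tract. The tract was carried by 3.01% of the 27025 genes in the RefSeq set, and by 3.05% of the 8064 tested genes found there. The 5 starts shown have 20 bases on each side of the point where transcription is annotated to begin. All have small subunit symbols, and they set Rps27 beside its retrocopy. Their log2 fold changes (proximal minus distal) were the most negative of the 14, at -0.41 to -0.52. The longest runs, 13 bases in Rpl15 (-0.14) and 11 in Rpl35 (-0.22), are not shown. Capitals mark the pyrimidine run from the annotated start.
Rps10, chr17:27635225-27635264, minus strand: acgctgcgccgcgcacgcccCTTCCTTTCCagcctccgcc
Rps18, chr17:33955646-33955685, minus strand: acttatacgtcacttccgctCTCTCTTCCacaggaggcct
Rps27, chr3:90213629-90213668, minus strand: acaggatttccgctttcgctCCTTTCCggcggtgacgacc
Rps27rt, chr9:114982720-114982759, minus strand: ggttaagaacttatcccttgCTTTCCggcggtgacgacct
Rps21, chr2:180257359-180257398, plus strand: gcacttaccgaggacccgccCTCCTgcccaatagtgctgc
The pyrimidine run was 10 bases in Rps10, 9 in Rps18, 7 in Rps27, 6 in Rps27rt and 5 in Rps21. A match describes the letters at the annotated start, and the start used in these cells was not measured.

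The coding sequence of Rps27, a small subunit protein with a zinc finger, was found unchanged in Rps27rt, over all 252 coding bases compared. It is shown once because it is the sequence behind the most abundant member, and its capitals mark the bases on either side of the 3 exon junctions within the coding sequence of Rps27, none of which interrupts the single exon of Rps27rt.
Rps27 and Rps27rt, coding bases 1 to 252: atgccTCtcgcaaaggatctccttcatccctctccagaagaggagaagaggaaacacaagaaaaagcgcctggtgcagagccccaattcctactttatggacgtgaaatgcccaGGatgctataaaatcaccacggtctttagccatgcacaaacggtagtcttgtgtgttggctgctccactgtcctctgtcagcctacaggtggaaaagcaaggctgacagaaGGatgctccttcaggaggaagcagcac
Rps27 lies on chromosome 3 (90212522 to 90213651, mm10, minus strand) and Rps27rt on chromosome 9 (114982366 to 114982739, minus strand). Rpl37, a large subunit protein with a zinc finger, and its annotated copy Rpl37rt differed at 1 of 291 coding bases, G249A, counted from the A of the start codon and with the base of Rpl37 first. Capitals mark that base.
Rpl37, coding bases 235 to 263: cgtgagggaacaacGccgaaacccaagag
Rpl37rt: cgtgagggaacaacAccgaaacccaagag
Rplp2, a protein of the ribosomal stalk, differed from a copy in the Wdr89 gene at 2 of 345 coding bases, A83G and C165T.
Rplp2, coding bases 69 to 97: caagaaaatactagAcagcgtgggcatcg
Wdr89: caagaaaatactagGcagcgtgggcatcg
Reads from such stretches can be placed at either locus, and how the authors' counting divided them is not stated. The values of a gene with such a copy are therefore uncertain as to locus.

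Ribosomal protein genes spanned a wide range of levels in basal cells (see the plot of levels by gene). The 77 standard genes lay between 4.51 FPKM for Rps12 and 1363 FPKM for Rpl41, a 302-fold range, with a median of 69.0 FPKM. Rpl41, which encodes the smallest ribosomal protein, stood at 1683, 1451 and 1346 FPKM in distal and at 1371, 1054 and 1276 FPKM in proximal libraries, so the groups overlapped. Rps9 (mean 528 FPKM) and Rpl32 (494 FPKM), core proteins of the small and the large subunit, were also among the most abundant. At the opposite end, Rps12, Rps15a, Rpl36a, Rpl31, Rpl12 and Rps29 were the 6 standard genes under 10 FPKM. The level of a gene also rests on the transcript model that received its fragments. All of the FPKM of Rps12 was assigned to a model of 1802 bases, whereas its model of 518 bases was listed at 0 in all 6 libraries, and all of that of Rps15a to a model of 5134 bases. Of the 140 deposited transcripts of the members, 35 were listed at 0 in every library and 8 in some of them.

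**Figure D1:**
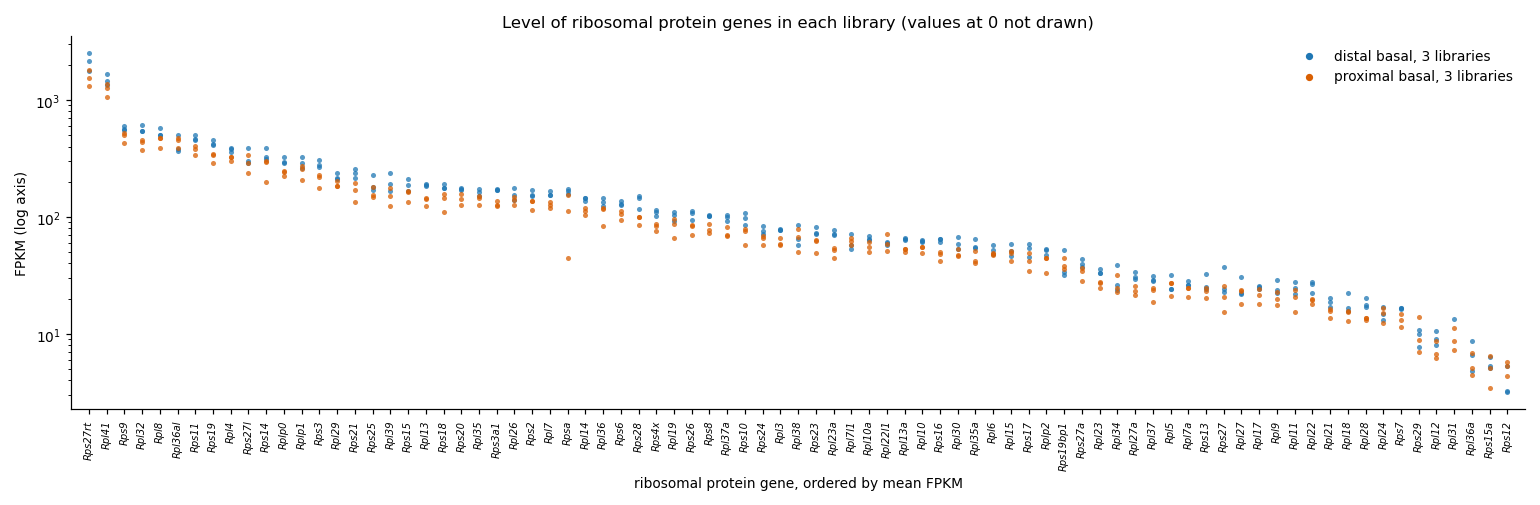
FPKM on a log axis of 81 of the 83 tested ribosomal protein genes, ordered by mean level, with 1 point per library (3 distal in blue, 3 proximal in orange; values listed at 0 are not drawn). In 51 genes drawn all distal points lie above all proximal points, and mean levels run from 1854 FPKM for Rps27rt to 4.51 FPKM for Rps12.

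Copies of ribosomal protein genes were measured at levels that often exceeded the parent gene. With at least 95% identity over at least 90% of the coding sequence, 12 copies of 11 members reached a mean of 1 FPKM, and 8 of the 12 stood above their parent gene. Rps27rt, on average 1854 FPKM against 24.3 FPKM for Rps27, had the highest value listed for any member. It stood at 2520, 2158 and 1783 FPKM in distal and 1799, 1331 and 1531 FPKM in proximal libraries. The values listed for this retrocopy made up 14.7 ± 1.30% of the summed member FPKM in distal and 13.4 ± 0.82% in proximal libraries (SD, n = 3). Its coding sequence is identical to that of Rps27, so which of the 2 loci the fragments came from is not known. Rpl37rt stood at 400 FPKM against 25.9 FPKM for Rpl37, and Rpl14-ps1 at 347 FPKM against 127 FPKM for Rpl14. The Wdr89 gene, which holds the copy of Rplp2, had a mean of 265 FPKM against 45.9 FPKM for Rplp2, all of it in a deposited transcript of 825 bases. Rps19 showed the opposite order, with 378 FPKM against 41.9 FPKM for Rps19-ps3. Across the 83 tested members, the level and the number of near-identical annotated copies had a Spearman correlation of -0.30 (Pearson -0.33 on log2 FPKM), a description across genes that share the same libraries. The 5 tested members without such a copy, Rps27l and Rps19bp1 among them, had a median of 307 FPKM. It was 75.7 FPKM for 40 members with 1 to 5 copies, 92.7 FPKM for 25 with 6 to 10, and 49.6 FPKM for 13 with over 10, so the middle classes were not in order.

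**Figure D2:**
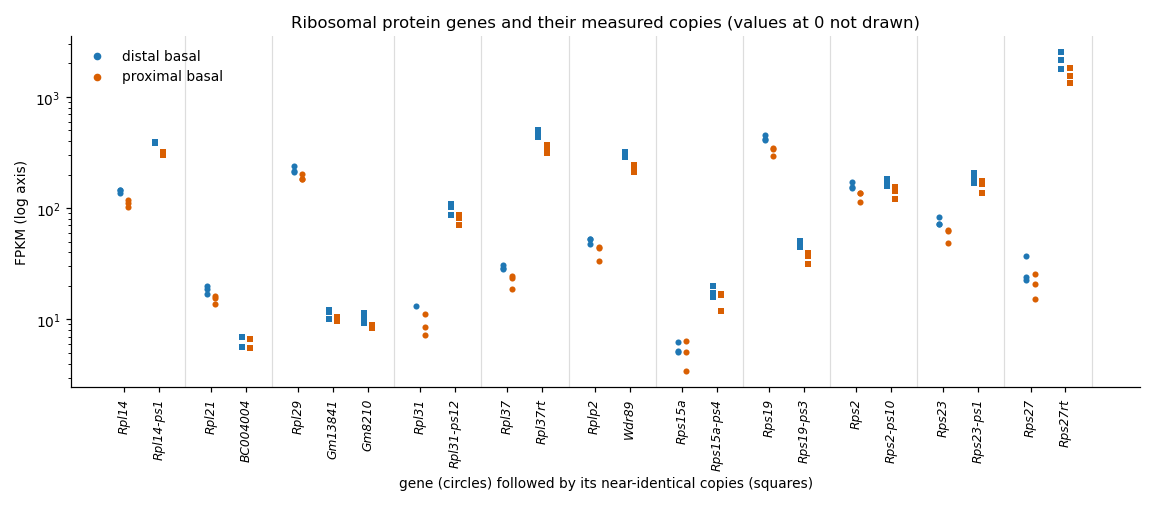
FPKM on a log axis of 11 ribosomal protein genes (circles) and their near-identical copies (squares), 1 point per library, distal in blue and proximal in orange; values listed at 0 are not drawn. Rps27rt, Rpl37rt, Rpl14-ps1 and Rpl31-ps12 lie above their parent gene in every library shown.

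The question of the comparison was how basal cells of the 2 duct regions differ. Of the 83 tested members, 4 were lower in proximal than in distal cells and 0 were higher, against 2.5% lower and 4.52% higher among all 10255 tested genes (limma, adjusted p under 0.05). At an unadjusted p under 0.05 the numbers were 42 lower (50.6%) and 0 higher, against 11.9% lower and 12.1% higher among all tested genes and 177 lower among the 884 other tested genes under 1000 bases. The 4 called genes were Rpl23a and Rpl13 of the large subunit and Rps16 and Rps3a1 of the small subunit, lower by 0.41 to 0.53 on the log2(FPKM + 1) scale. The other 79 members did not pass the test, and over all 83 the estimates were negative in 76 and positive in 7. The median log2 fold change over the members was -0.31 (quartiles -0.39 and -0.23), a level 19.1% lower, beside -0.01 over all tested genes. Proximal and distal values did not overlap, with proximal lower, in 53 members (63.9%) against 13.0% of all tested genes, and 0 members had non-overlapping values with proximal higher, against 15.8% of all tested genes.

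Rpl23a, which sits at the mouth of the exit tunnel, stood at 77.1, 71.8 and 69.7 FPKM in distal and at 54.4, 44.5 and 52.0 FPKM in proximal libraries. Every proximal library was below every distal one. Its log2 fold change was -0.53 ± 0.11 (SE, limma, adjusted p = 0.0280), and it lies on chromosome 11 (78180932 to 78183584, mm10). Rpl13, a large subunit protein, stood at 192, 183 and 189 FPKM against 146, 124 and 142 FPKM, again without overlap. Its log2 fold change was -0.45 ± 0.10 (SE, limma, adjusted p = 0.0393), and it lies on chromosome 8 (123102350 to 123105244). Rps16, a small subunit protein whose tail reaches the decoding site, stood at 64.2, 65.2 and 60.6 FPKM against 47.9, 42.2 and 49.7 FPKM. Its log2 fold change was -0.44 ± 0.10 (SE, limma, adjusted p = 0.0423), and it lies on chromosome 7 (28350652 to 28353155). Rps3a1, a small subunit protein at the messenger RNA exit, stood at 173, 170 and 170 FPKM against 126, 124 and 136 FPKM. Its log2 fold change was -0.41 ± 0.09 (SE, limma, adjusted p = 0.0386), and it lies on chromosome 3 (86137940 to 86142702). In all 4 genes the 3 proximal values fell below the lowest distal value.

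These calls rested on few libraries. None of the 83 members was called lower without distal replicate 2, without proximal replicate 2 or without proximal replicate 3, 1 was called without distal replicate 3 (Rps28), 3 without distal replicate 1 and 9 without proximal replicate 1. Without distal replicate 1, Rpl31 was called higher, with both remaining distal values listed at 0. In these fits the unadjusted p under 0.05 was reached with a negative sign by 32, 23 and 40 members for the first 3, and by 39, 28 and 49 members for the others (limma). Over all tested genes the lower calls went from 256 to 46, 53 and 74 in the first 3 of these fits and to 62, 622 and 548 in the others. The median log2 fold change was -0.21 without proximal replicate 2 and lay between -0.25 and -0.35 without each of the other libraries.

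Among the members that did not pass the test, the most negative estimates belonged to Rpsa, Rps28, Rps21 and Rps27rt. Rps28, which lies near the messenger RNA exit, had 146, 152 and 116 FPKM in distal and 99.9, 86.0 and 98.9 FPKM in proximal libraries, which gave -0.53 ± 0.13 (SE, limma, adjusted p = 0.0530). Rps21 had -0.52 ± 0.16 (SE, limma, adjusted p = 0.0889). Rpsa, which also serves as a laminin receptor at the cell surface, had -0.85 ± 0.39 (SE, limma, adjusted p = 0.226), with 173, 166 and 159 FPKM in distal and 153, 44.3 and 112 FPKM in proximal libraries. Its deposited transcript of 323 bases was listed at 0 in proximal replicate 2 and at 103 and 72.4 FPKM in the other proximal libraries, so the low value there follows 1 transcript. Rps12 had the only positive estimate above 0.10 besides Rpl31, at 0.34 ± 0.19 (SE, limma, adjusted p = 0.316). Rpl31 was listed at 13.3, 0 and 0 FPKM in distal and at 11.2, 7.30 and 8.60 FPKM in proximal libraries, so no fold is given for it. Rpl31-ps12, its near-identical copy, stood at 108, 101 and 87.1 FPKM in distal and 87.3, 70.2 and 81.1 FPKM in proximal libraries.

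**Figure D3:**
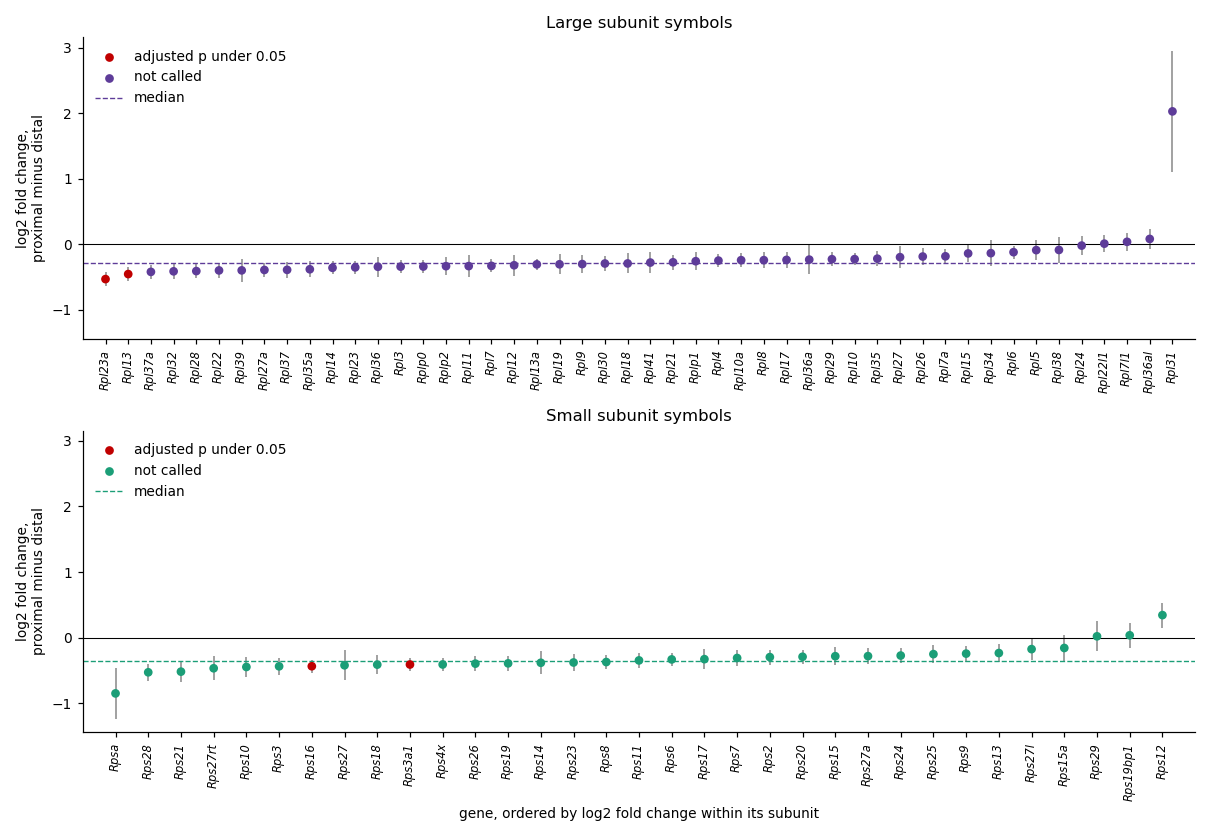
Log2 fold change (proximal minus distal, on log2(FPKM + 1)) with its standard error for 81 of the 83 tested genes, by large or small subunit symbol, ordered by value; red points passed the test, and the dashed line is the median of the subunit. The 4 called genes are all negative, and the medians are -0.29 for the large and -0.36 for the small subunit, while Rpl31, listed at 0 in 2 distal libraries, is drawn at its fitted value.

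Both subunits contributed to the called genes. Of 49 tested large subunit members 2 were lower and 0 higher, with a median log2 fold change of -0.29, and of 34 small subunit members 2 were lower and 0 higher, with a median of -0.36 (limma). At an unadjusted p under 0.05, 21 members of each subunit were lower, 42.9% of the large and 61.8% of the small subunit members, and none higher. The medians differed by 0.07, and this difference was not tested as a score. Within the standard genes alone they were -0.30 for 46 large and -0.37 for 31 small subunit genes. The ratio of summed large to summed small subunit FPKM was 0.884, 0.869 and 0.906 in distal and 0.941, 0.993 and 0.965 in proximal libraries, so the groups did not overlap. Without Rps27rt it was 1.26, 1.21 and 1.21 in distal and 1.30, 1.34 and 1.29 in proximal libraries, again without overlap.

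The ribosomal stalk, in which Rplp0 anchors Rplp1 and Rplp2 and recruits the elongation factors, did not differ past the threshold. Rplp0 had an estimate of -0.34 ± 0.10 (SE, limma, adjusted p = 0.0956), from 323, 289 and 294 FPKM in distal to 244, 223 and 248 FPKM in proximal libraries. Rplp1 and Rplp2 had -0.26 ± 0.14 and -0.33 ± 0.13 (SE, limma, adjusted p = 0.297 and 0.176). Paralogues and the other nonstandard members had a different centre. The median of the 6 that were tested was 0.02, with 0 called and 1 below an unadjusted p of 0.05 (limma). Rpl36al, a paralogue of Rpl36a with no intron in its coding sequence, stood at 498, 382 and 370 FPKM in distal and 471, 389 and 456 FPKM in proximal libraries, giving 0.08 ± 0.15 (SE, limma, adjusted p = 0.788). Rpl22l1 had 0.01 ± 0.13 and its partner Rpl22 had -0.40 ± 0.11 (SE, limma, adjusted p = 0.978 and 0.0793). Rps27l, a p53-responsive paralogue of Rps27, had -0.18 ± 0.17 and Rps27 -0.42 ± 0.23 (SE, limma, adjusted p = 0.559 and 0.306). Rpl7l1 and Rps19bp1 each had 0.04. Rpl10l and Rpl39l were listed at 0 in all libraries and Rpl3l, a muscle paralogue, had a mean of 0.0055 FPKM.

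The near-identical copies, Rps27rt among them, had estimates of the same sign as most members. All 12 had negative log2 fold changes, against 51.5% of all tested genes, and 0 were called, against 2.5% called lower. An unadjusted p under 0.05 was reached by 7 (limma), against 11.9% of all tested genes with proximal lower. Values did not overlap, with proximal lower, in 6, against 13.0% of all tested genes. Reads can be placed at a copy or at its member, so these values are not separate from those of the members. Rpl37rt had -0.44 ± 0.12, from 502, 439 and 441 to 368, 315 and 337 FPKM (SE, limma, adjusted p = 0.0630). Rpl14-ps1 had -0.33 ± 0.10, from 384, 390 and 385 to 318, 300 and 303 FPKM (SE, limma, adjusted p = 0.0845).

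The summed FPKM of the members was 16033, 14244 and 13472 in distal and 12612, 10150 and 12078 in proximal libraries. This corresponds to 14583 ± 1314 against 11613 ± 1295 FPKM (SD, n = 3), a difference of -20.4%, and to 3.82 ± 0.28% against 3.17 ± 0.24% of all gene FPKM. The groups did not overlap on either scale. In bulk samples, fewer cells of a type and less RNA per cell cannot be told apart. Libraries of 1 group also differed among themselves (see the plot of deviations by library). The median deviation of the members from their own mean on the log2 scale was 0.27, 0.12 and 0.06 in distal replicates 1, 2 and 3 and -0.05, -0.31 and -0.08 in proximal replicates 1, 2 and 3. Proximal replicate 2 held the lowest value of 75 members and distal replicate 1 the highest value of 66. Other genes under 1000 bases had median deviations of 0.21, 0.03 and -0.01 in distal and 0.08, -0.22 and -0.05 in proximal libraries. Immediate early genes, which respond to tissue dissociation, had -0.15, 0.78 and 0.72 in distal and -0.52, -0.38 and -0.29 in proximal libraries. The part of these in the difference was not tested.

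**Figure D4:**
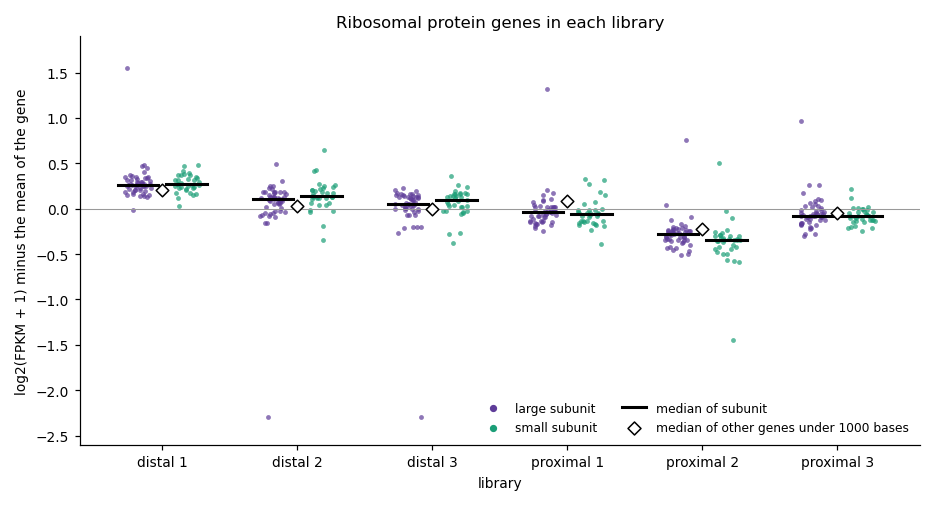
Deviation of each tested ribosomal protein gene from its mean over the 6 libraries, log2(FPKM + 1), for large (purple) and small (green) subunit symbols, with the subunit medians as black bars and the median of other genes under 1000 bases as diamonds. Distal replicate 1 lies highest and proximal replicate 2 lowest.

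Ribosomal protein messenger RNAs are short, and short genes as a class also had lower estimates in the proximal libraries. Members had a median transcript length of 703 bases (255 to 5134) beside 2680 bases for all tested genes. In the class below 500 bases the median log2 fold change was -0.33 for 18 members and -0.22 for 148 other genes. Between 500 and 1000 bases it was -0.32 for 43 members and -0.14 for 736 other genes, and between 1000 and 2000 bases -0.30 for 17 members and -0.03 for 2473 other genes. From 2000 to 5000 bases it was -0.19 for 4 members and 0.01 for 5462 other genes. Over all 83 members the log2 fold change had a Pearson correlation of 0.19 with log2 length and a Spearman correlation of 0.17, and over all tested genes 0.08 and 0.13, descriptions across genes that share the libraries. With the trend of each library on length removed, the median over the members was -0.14, 68 of 83 were negative, and 1 member was lower and 0 higher (limma), with 18 negative and 2 positive at an unadjusted p under 0.05. None of the 4 genes called without that correction was called with it. Members of high level had the more negative estimates, with a Spearman correlation between log2 fold change and level of -0.31 (n = 83). Among the 63 tested members with a promoter window, the 14 with a TOP tract at the annotated start had a median log2 fold change at -0.37, and the 49 without one had -0.29, while 20 tested members had no window. Over the 8064 tested genes with a window the medians were -0.05 with the tract and -0.01 without it. The part of the tract in these values was not tested.

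**Figure D5:**
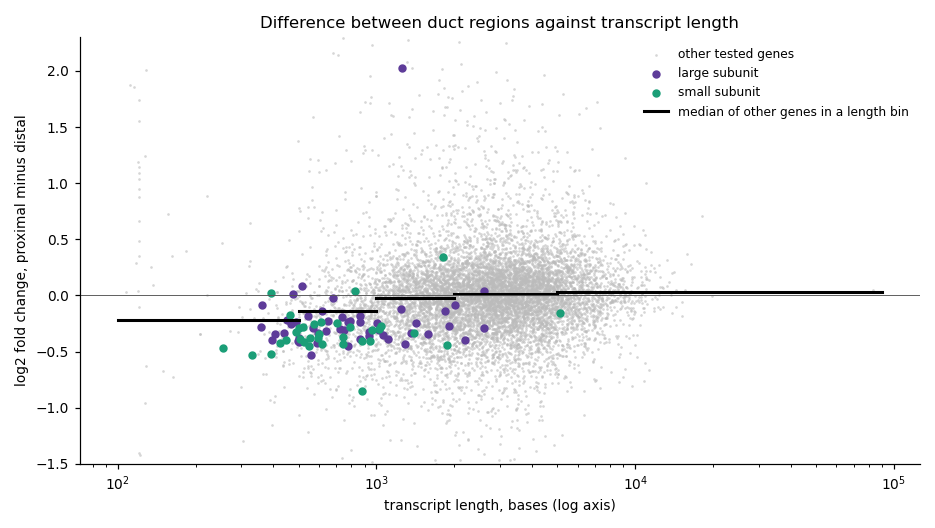
Log2 fold change (proximal minus distal) against transcript length on a log axis, with ribosomal protein genes in purple (large) and green (small), other tested genes in grey and the median of the other genes in each length class as black bars; 63 other genes lie outside the vertical range. The medians of the members below 500 bases and between 500 and 1000 bases, -0.33 and -0.32, lie below the bars of the other genes at -0.22 and -0.14.

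Other parts of the translation machinery were read from lists. Of all 10255 tested genes, 2.5% were called lower and 4.52% higher (limma). At an unadjusted p under 0.05 these shares were 11.9% and 12.1%. Fau, which encodes a small subunit protein fused to a ubiquitin-like one, had a log2 fold change of -0.24 ± 0.11, and Rack1, a scaffold on the small subunit, had -0.18 ± 0.13 (SE, limma, adjusted p = 0.226 and 0.426). The elongation factor list had 0 of 10 called and a median of -0.15 (limma). At an unadjusted p under 0.05 it had 3 lower, Eef1a1, Eef1g and Eef2k. Eef2k encodes a kinase of elongation factor 2 and not an elongation factor. Eef1a1, which delivers aminoacyl-tRNA, had -0.29 ± 0.12 (SE, limma, adjusted p = 0.189). Initiation factors had 0 of 38 called and a median of -0.04 (4 lower at an unadjusted p under 0.05), and the 3 with the smallest p, Eif3f, Eif3h and Eif3k, had -0.28, -0.37 and -0.30. Over 12 tested Eif3 subunits, Eif3j1 not counted, 6 estimates were negative and 6 positive, among the latter Eif3b at 0.17. Eif3j1 had a negative estimate, -0.19. A list of other genes with TOP messenger RNAs, which shares genes with these 2 lists, had 1 of 19 higher, Vim, and 0 lower. Its median was -0.20, with 5 lower and 1 higher at an unadjusted p under 0.05 (limma). Those 5, Eif3f, Eif3h, Eef1a1, Eef1g and Pabpc1, were already counted among the elongation or initiation factors. Vim, the mesenchymal intermediate filament, stood at 8.42, 5.69 and 7.22 FPKM in distal and 23.1, 27.3 and 23.7 FPKM in proximal libraries (log2 fold change 1.67 ± 0.15, SE, limma, adjusted p = 8.67e-04). Ribosome biogenesis genes, which process and assemble ribosomal RNA, had 0 of 72 called, 0 at an unadjusted p under 0.05, and a median of 0.03 (limma). Regulators of ribosomal protein synthesis had 0 of 23 called, 8 lower and 3 higher at an unadjusted p under 0.05, and a median of -0.08. Among them Ddit4, an inhibitor of mTORC1, had -0.85 ± 0.23 and Eif4ebp1, a repressor of cap-dependent initiation, 0.47 ± 0.14 (SE, limma, adjusted p = 0.0690 and 0.0931).

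Markers of other cells differed between the duct regions in some lists and not in others. Among all tested genes 4.52% were called higher and 2.5% lower, and 12.1% were higher and 11.9% lower at an unadjusted p under 0.05 (limma). Luminal and secretory markers had 1 of 10 higher and 2 lower (limma), with summed FPKM of 2124 to 2911 in distal and 2465 to 2717 in proximal libraries. Nerve and glia markers had 2 of 3 higher, and erythroid markers 0 of 3 called. Endothelial markers had 5 of 7 higher in proximal cells (summed FPKM 2.53 to 12.5 in distal and 19.3 to 28.2 in proximal libraries). Proximal luminal progenitor markers had 6 of 7 higher (378 to 431 against 823 to 939). Fibroblast and smooth muscle markers had 4 of 10 higher, while their sum was lower (793 to 835 against 709 to 778). Dcn, at a mean of 724 FPKM, made up most of that sum and was not called (-0.18 ± 0.11, SE, limma, adjusted p = 0.365). The 4 called genes had means of 1.27 to 12.1 FPKM. Immune markers had 0 of 3 called and 0 at an unadjusted p under 0.05 (limma, summed FPKM 12.6 to 14.2 against 10.8 to 13.5). Immediate early genes had 3 of 15 lower, 12 lower at an unadjusted p under 0.05 (limma), and a median log2 fold change of -0.92, with all 15 negative. The part of these markers in the ribosomal protein values was not tested.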

How the data were processed

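Basal cells from proximal and distal ducts were compared over 6 libraries. The submitters' processing notes name bcl2fastq 1.8.3, TopHat, Cufflinks and the build mm10. Which annotation was counted is not given in the sources used. The deposited files hold FPKM of 63241 transcripts, which the authors scaled to transcript length and library size, with an interval for each, per the file headers. The coverage column deposited beside it was not used. Transcripts were matched by locus and length to GENCODE M21, which gave 53323 transcripts, 93.9% of the FPKM and 25273 genes as sums of FPKM. Depth was estimated from the widths of the deposited intervals, whose 1 SD half-width had a median of 4.38% over member transcripts. Over 3 libraries the coefficient of variation of a member had a median of 8.27% in distal and 10.5% in proximal cells.

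Genes averaging 1 FPKM or more entered limma 3.58.1 under R 4.3.3 as log2(FPKM + 1) values (eBayes with a variance trend, two-sided, no covariates) and Benjamini-Hochberg adjustment over 10255 genes at 0.05. This scale understates the change of low genes. Each sequence copy was found with BLASTN 2.17.0. The procedure was tested on simulated data, with noise drawn independently for each gene and library. It recovered 20.9% of 67 genes given a log2 change of 0.5, 86.57% of 67 given 1 and 100% of 66 given 2. It also called 7 genes given no change. Shifts shared by many genes of a library, as seen in these libraries, were not simulated, so recovery and false calls may differ here. Smaller changes were not tested. The members, the lists and the tests were chosen with earlier results of these data known. Named genes are the called members, the 5 largest and 5 smallest log2 fold changes, the 5 highest levels, the paralogues and their partners, the stalk, Fau and Rack1, and up to 3 genes with the smallest p of each pathway list. The results of some genes are not given here. The near-identical copies and other members named, and Eif3b, Eif3j1, Pabpc1 and Dcn, were chosen after their values were seen. Alternatives were another pseudocount, filters, matching rules, 3 rescalings, a length correction, no variance trend, a replicate block, libraries left out and, added after the data were seen, near-identical copies summed with their gene. The same-numbered libraries had deviations correlated at 0.38, 0.04 and 0.29.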

Additional observations from a re-analysis of the deposited data

How the results depend on the processing

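The count of members lower in proximal cells (4) was 2 with no expression filter, 2 with values rescaled to the same sum, 1 with the length trend removed and 1 with no variance trend in limma. Without 1 library at a time it ranged from 0 to 9, and the count of members higher from 0 to 1. Without both libraries numbered 1 there were 17 lower and 1 higher, beside 1385 lower and 908 higher over all 10276 genes tested. With the replicate block 33 members were lower, the 4 called genes included, and whether the numbers pair the libraries is not given by the labels. Deviations of same-numbered libraries correlated at 0.38, 0.04 and 0.29, the highest for distal replicates 1 and 3, whereas distal replicate 2 correlated best with proximal replicate 3 (0.13). Not every pair exceeded 0.1, so the fit without the block was kept. Over all genes the block called 880 higher and 732 lower, against 464 and 256. The median log2 fold change of -0.31 was -0.14 with the length trend removed. The large minus small subunit difference of 0.07 was 0.041 with closely matched transcripts only, 0.041 with near-identical copies added and 0.11 without both libraries numbered 1. The correlation with length of 0.19 was 0.16 with a pseudocount of 0.1, 0.16 with a filter at 5 FPKM, -0.11 with the length trend removed, 0.16 without both libraries numbered 1, and 0.16 to 0.27 without 1 library at a time. Single genes turned direction as follows. With the length trend removed Rpl41 had 0.025, Rpl36a 0.014 and Rps27l 0.081, and with its copy added Rpl31 had -0.22. Without 1 library at a time Rps19bp1 ranged from -0.094 to 0.25, Rpl7l1 from -0.056 to 0.16 and Rpl22l1 from -0.12 to 0.13. The cause of these shifts was not tested. For 45 named genes under 18 alternatives, where tested, 732 values kept their direction and side of the threshold, 30 lost and 32 gained a call, and 11 turned direction. Most of these genes had no call to lose. Of the 4 called members, Rpl13 lost its call in 8 of the 18 alternatives, Rps3a1 in 8, Rpl23a in 5 and Rps16 in 9. The member transcripts' deposited intervals had a 1 SD half-width of 1.58% to 14.4% (5th to 95th percentile), which limits what can be seen of small changes in low genes.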
